A study of Mus musculus with 16 samples.

Results

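The 9 genes described here encode enzymes of bile acid synthesis in the liver: Cyp7a1, Cyp8b1, Cyp27a1, Cyp7b1, Hsd3b7, Akr1d1, Acox2, Slc27a5 and Baat. They were taken by symbol from a gene table of 20601 rows, and all 9 were listed. RNA-seq libraries came from liver tumors and from nontumor liver of mice on a ketogenic or a normal diet. Of the 9 genes, 8 passed the filter for testing (at least 1 TPM, a read abundance corrected for transcript length and depth, in at least 4 of 16 libraries). Hsd3b7 reached 1 TPM in 0 of 16 libraries. Each of the 8 passed through libraries of at least 3 of the 4 groups.

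Liver cancer was induced in every mouse by hydrodynamic delivery of 3 plasmids, for human N-Ras (19 µg), human c-Myc (1 µg) and the Sleeping Beauty transposase (2 µg), the enzyme that inserts the oncogenes into DNA of transfected liver cells. At week 4 the mice began 4 weeks of either a ketogenic diet (KD; 0.1% carbohydrate, 89.5% fat and 10.4% protein) or a normal diet (ND), and tissue was resected at week 8. The 16 samples formed 4 groups, KD tumor, ND tumor, KD nontumor and ND nontumor, with 4 libraries each. Nontumor samples came from livers that had received the same plasmids, so no group is untreated liver. The labels used here give no strain, sex or age, and do not say that samples of equal number came from 1 mouse.

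Bile acids are made from cholesterol in hepatocytes by a classic and an alternative route. In the classic route Cyp7a1 hydroxylates cholesterol first and sets the rate, and Cyp8b1 adds the hydroxyl group that makes cholic acid. In the alternative route Cyp27a1, a mitochondrial enzyme, oxidizes the side chain first and Cyp7b1 then hydroxylates the resulting oxysterol. Both routes share enzymes that remodel the ring (Hsd3b7, Akr1d1), shorten the side chain (Acox2) and conjugate the product to taurine or glycine (Slc27a5, Baat). The nuclear receptor FXR, encoded by Nr1h4, senses bile acids and, through SHP (Nr0b2) in the liver and FGF15 from the gut, lowers transcription of Cyp7a1.

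Before the values, 2 libraries stand apart. The genes of the table made up 77.1% to 79.9% of all TPM in KD tumors, 50.0% to 66.5% in ND tumors, 66.8% to 88.4% in KD nontumor liver and 73.4% to 84.3% in 3 ND nontumor libraries, but to 7.38% in ND nontumor 4. Levels are therefore given as rescaled TPM, the deposited TPM divided by 1 factor per library (0.128 for ND nontumor 4). Whole reads recovered from the TPM steps put depth over listed genes at 8860000 to 14070000 in KD tumors, 6850000 to 9770000 in ND tumors, 5680000 to 11040000 in KD nontumor liver and 3520000 to 8690000 in ND nontumor liver reads, rounded, with ND nontumor 4 the lowest. KD tumor 4 held the highest level among KD tumors for 7 of the 9 genes. Hepatocyte markers were present in every group: 0 of 12 were at 0 throughout a group, and Alb, serum albumin, averaged 69262 ± 8386 in KD tumors, 33796 ± 11146 in ND tumors, 26919 ± 11224 in KD nontumor and 25590 ± 9197 rescaled TPM in ND nontumor liver (SD, n = 4 each). Tat, of the same list, went the other way, with 93.5 ± 73.0 in KD tumors and 75.3 ± 30.0 in ND tumors. It averaged 1001 ± 607 in KD nontumor and 965 ± 232 in ND nontumor liver.

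In tumors the 4 hydroxylases of the classic and alternative routes had far less RNA than in nontumor liver on both diets, and conjugation enzymes had moderately less. The diet comparison was narrower. Cyp7a1 was higher on KD in both tissues, and Cyp8b1 and Cyp7b1 were higher on KD in tumors, where their levels stayed low. Tests used limma on log2(rescaled TPM + 1) across all 13432 tested genes, with adjusted p under 0.05 taken as a call. The calls of Cyp8b1 and Cyp7b1 between tumors were lost in some fits that left out 1 library. On deposited TPM no enzyme was called between tumors. In bulk samples, fewer cells of a type and less RNA per cell cannot be told apart. The labels do not say that libraries of 1 group came from separate mice, so p-values cover the spread among libraries, which may be technical.

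**Figure D1:**
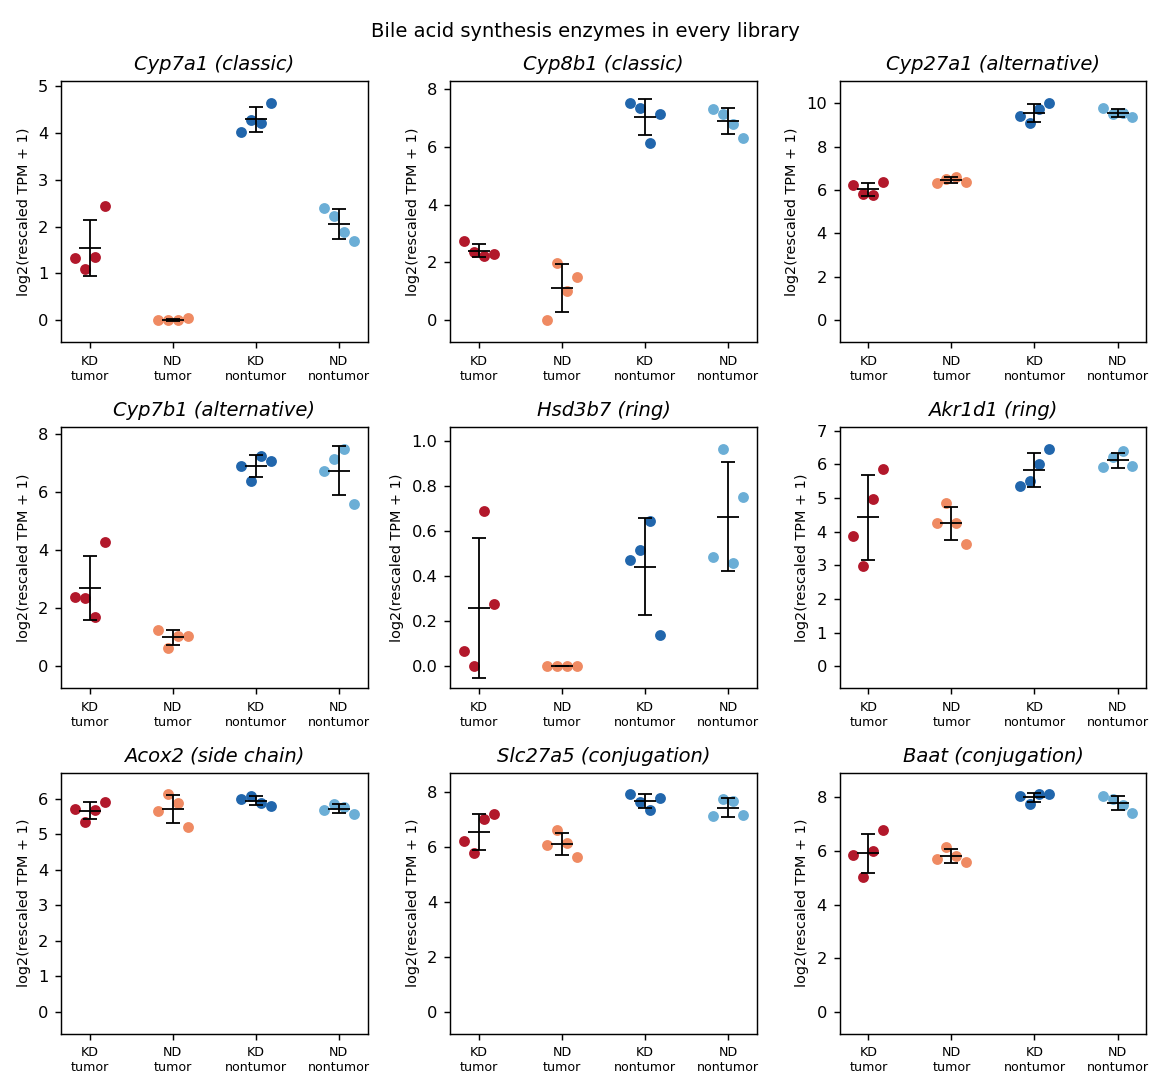
Level of each of the 9 enzymes in the 16 libraries, as log2(rescaled TPM + 1) on the vertical axis, with axes of different range per gene. Points are libraries 1 to 4 of each group from left to right, and bars are the mean and SD (n = 4). Cyp7a1, Cyp8b1, Cyp27a1 and Cyp7b1 sit lower in tumors than in nontumor liver of the same diet in every library, whereas Acox2 overlaps between all groups.

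Promoter windows were available for 5 of the 9 genes from RefSeq on GRCm38.p6 (250 bases before to 50 after the start). They are shown for Cyp8b1, whose log2 fold change in tumors was among the lowest of the 8 on both diets, Cyp27a1, which had the highest level of the 9 in nontumor liver, and Acox2, which was not called in any comparison. Acox2 also has a window from another start, chr14:8258790-8259089, which is not shown. Capitals mark exact matches to CAAAGTCCA, an HNF4A element, and to TATAAA, the core promoter element bound by TBP. Both strands were searched, also for CAAGGTCA and CAAGGCCA (LRH-1 elements) and AGGTCA (the core of nuclear receptor elements, contained in the first LRH-1 element).
Cyp8b1, chr9:121916256-121916555, minus strand: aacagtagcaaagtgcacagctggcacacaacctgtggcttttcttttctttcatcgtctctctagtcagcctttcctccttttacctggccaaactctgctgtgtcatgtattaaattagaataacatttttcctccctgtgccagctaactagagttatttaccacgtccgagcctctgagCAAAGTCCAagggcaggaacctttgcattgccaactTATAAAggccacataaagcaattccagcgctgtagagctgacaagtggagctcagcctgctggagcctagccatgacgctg
Cyp27a1, chr1:74713285-74713584, plus strand: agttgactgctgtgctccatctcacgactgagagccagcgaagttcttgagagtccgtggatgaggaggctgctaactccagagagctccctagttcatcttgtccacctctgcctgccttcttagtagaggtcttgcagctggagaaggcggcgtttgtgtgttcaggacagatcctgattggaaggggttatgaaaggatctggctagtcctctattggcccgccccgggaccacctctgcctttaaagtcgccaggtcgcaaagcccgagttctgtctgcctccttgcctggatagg
Acox2, chr14:8258970-8259269, minus strand: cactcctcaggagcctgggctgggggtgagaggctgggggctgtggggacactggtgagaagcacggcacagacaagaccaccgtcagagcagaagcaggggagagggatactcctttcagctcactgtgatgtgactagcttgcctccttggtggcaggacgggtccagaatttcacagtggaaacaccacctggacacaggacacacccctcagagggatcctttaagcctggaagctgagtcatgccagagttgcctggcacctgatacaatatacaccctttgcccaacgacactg
The Cyp8b1 window held CAAAGTCCA 67 bases before the start and TATAAA 31 bases before it. Of 32851 promoter windows of the same length, 0.475% held CAAAGTCCA, 13.6% TATAAA, 16.3% AGGTCA, 1.56% CAAGGTCA and 2.4% CAAGGCCA. Among the 5 genes with a window, the only other match was AGGTCA at 2 places in that of Akr1d1. A match is a run of letters, not evidence of binding.

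In KD tumors against KD nontumor liver, 7 of the 8 tested enzymes fell, where 16.2% of all tested genes were called lower and 32.5% were called in either direction. In ND tumors against ND nontumor liver 7 of 8 fell, against 14.2% of all tested genes called lower and 28.7% called in either direction. The median log2 fold change of the 8 enzymes was -2.41 on KD and -2.01 on ND, beside 0.01 and 0.00 for all tested genes. Acox2 was the exception on both diets. Without ND nontumor 4 the same 7 were lower on ND, and Cyp8b1 had -6.06 (adjusted p = 1.74e-07). The 2 comparisons have no library in common.

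Cyp7a1 (chr4:6265612-6275633, minus strand), the rate-limiting enzyme of the classic route, had 1.52, 1.12, 1.55 and 4.38 rescaled TPM in KD tumors, against 15.1, 18.4, 17.6 and 23.9 in KD nontumor liver. In ND tumors it had 0, 0, 0 and 0.0325, against 4.24, 3.68, 2.71 and 2.25 in ND nontumor liver. The groups did not overlap on either diet, which was so, lower in tumors, for 17.3% of tested genes on KD and 13.7% on ND. In ND tumors 1 read was recovered for Cyp7a1 over all 4 libraries, against 241 in ND nontumor liver. A count of 0 allows up to 3 reads, which correspond to 0.128 to 0.152 rescaled TPM in the 3 ND tumors at 0. The log2 fold change was -2.74 ± 0.25 (SE, n = 4 per group; adjusted p = 1.92e-06) on KD and -2.04 ± 0.25 (adjusted p = 1.98e-05) on ND, on the log2(rescaled TPM + 1) scale, which understates the change of low genes. From summed reads, Cyp7a1 was 9.06-fold lower in KD tumors than in KD nontumor liver (95% exact interval 7.86 to 10.5). On ND the ratio of tumor to nontumor reads was 0.00309 (7.8e-05 to 0.0174). These intervals cover counting error only, not the spread between libraries.

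Cyp8b1 (chr9:121914356-121916305, minus strand), which directs the classic route to cholic acid, had 5.66, 4.18, 3.72 and 3.89 rescaled TPM in KD tumors, against 182, 160, 69.5 and 138 in KD nontumor liver. In ND tumors it had 0, 2.94, 1.01 and 1.81, against 156, 140, 110 and 77.7 in ND nontumor liver. Every tumor library was below every nontumor library of its diet. Its log2 fold change was -4.62 ± 0.37 (SE; adjusted p = 4.49e-07) on KD and -5.76 ± 0.37 (adjusted p = 3.98e-08) on ND. Only 8 of the 13432 tested genes had a lower fold change on KD, and 16 on ND. From summed reads the decrease was 32.7-fold (28.6 to 37.5) on KD and 86.7-fold (68.0 to 112.3) on ND.

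Cyp27a1 (chr1:74713574-74737892, plus strand), which opens the alternative route and also oxidizes the side chain in the classic one, had the highest level of the 9 genes in nontumor liver. It had 73.6, 54.5, 52.9 and 81.6 rescaled TPM in KD tumors, against 681, 535, 837 and 1033 in KD nontumor liver. ND tumors had 78.1, 90.2, 97.1 and 82.8, against 879, 716, 751 and 656 in ND nontumor liver. Every tumor level lay far below every nontumor level. On the log2 scale the fold change was -3.52 ± 0.22 (SE; adjusted p = 4.66e-08) on KD and -3.09 ± 0.22 (adjusted p = 6.97e-08) on ND.

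Cyp7b1 (chr3:18071950-18243338, minus strand), the oxysterol hydroxylase that follows Cyp27a1 in the alternative route, had 4.22, 4.16, 2.27 and 18.3 rescaled TPM in KD tumors, against 119, 82.4, 151 and 134 in KD nontumor liver. ND tumors had 1.37, 0.548, 1.07 and 1.06, against 105, 142, 180 and 46.9 in ND nontumor liver. KD tumor 4 was the highest tumor, yet below every nontumor library. The log2 fold change was -4.22 ± 0.45 (SE; adjusted p = 8.54e-06) on KD and -5.75 ± 0.45 (adjusted p = 3.03e-07) on ND, with 13 and 17 tested genes lower. Without KD tumor 4 the KD value was -4.75.

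Of the ring enzymes, Akr1d1 (chr6:37530173-37568815, plus strand), the reductase that gives bile acids their bent ring, had 13.8, 6.83, 30.6 and 57.5 rescaled TPM in KD tumors, against 40.3, 44.9, 63.1 and 87.8 in KD nontumor liver. These groups overlapped, with KD tumor 4 above 2 nontumor libraries. In ND tumors it had 18.3, 27.8, 18.1 and 11.4, against 59.2, 73.7, 83.0 and 61.6 in ND nontumor liver, without overlap. The log2 fold change was -1.87 ± 0.46 (SE; adjusted p = 0.00579) on ND. On KD it was -1.41 ± 0.46 (adjusted p = 0.0262), a call that was lost when any 1 of KD tumor 1, KD tumor 2, KD nontumor 3 or KD nontumor 4 was left out (adjusted p = 0.0599 to 0.0923, log2 fold change -1.37 to -0.93). It was also lost with no filter (adjusted p = 0.0523) and with only the groups compared (adjusted p = 0.0764).

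Hsd3b7 (chr7:127800604-127803802, plus strand), the ring dehydrogenase common to both routes, was listed near 0 everywhere. It had 0.0486, 0, 0.608 and 0.211 rescaled TPM in KD tumors, 0 in all 4 ND tumors, 0.386, 0.428, 0.562 and 0.0989 in KD nontumor liver and 0.399, 0.951, 0.371 and 0.679 in ND nontumor liver. This is 0 reads over the ND tumors against 27 over ND nontumor liver. The 95% exact interval of the read ratio ran from 0 to 0.109, a decrease of 9.16-fold or more, for counting error only. With the ND tumors set at the floor of 3 reads over the group, the decrease would be 12.07-fold. In GENCODE M21, 2746 of its 2769 exon bases (99.17%) also lie in exons of other genes, Gm49388 on the same strand (62.01%) and 9430064I24Rik on the opposite strand (62.44%). The other 8 genes share 0 exon bases. How reads in overlapping genes were counted is not given in the sources used here, so the level of Hsd3b7 is uncertain and was not tested.

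Acox2 (chr14:8225511-8259353, minus strand), the peroxisomal oxidase of the bile acid side chain, was the only tested enzyme not called between tumor and nontumor liver. It had 52.0, 40.0, 50.5 and 59.2 rescaled TPM in KD tumors, against 63.1, 67.0, 58.4 and 54.8 in KD nontumor liver. ND tumors had 49.5, 68.9, 58.2 and 35.9, against 50.4, 56.8, 54.1 and 46.4 in ND nontumor liver. The groups overlapped on both diets. The log2 difference was -0.28 (95% interval -0.67 to 0.12; adjusted p = 0.268) on KD and 0.00 (-0.39 to 0.39; adjusted p = 0.997) on ND. With listed genes scaled to 1 common sum, the KD value became -0.60 and was called (adjusted p = 0.0253).

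Slc27a5 (chr7:12988346-12998192, minus strand), the ligase that links bile acids to coenzyme A before conjugation, had 73.6, 55.0, 129 and 147 rescaled TPM in KD tumors, against 242, 202, 161 and 222 in KD nontumor liver. In ND tumors it had 66.3, 97.9, 70.5 and 49.1, against 140, 217, 206 and 144 in ND nontumor liver. The groups did not overlap, although KD tumors 3 and 4 came close to the lowest KD nontumor library. Its log2 fold change was -1.12 ± 0.29 (SE; adjusted p = 0.00814) on KD and -1.32 ± 0.29 (adjusted p = 0.00299) on ND.

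Baat (chr4:49489422-49506557, minus strand), which transfers the bile acid to taurine or glycine, had 56.0, 31.6, 63.4 and 109 rescaled TPM in KD tumors, against 260, 211, 274 and 274 in KD nontumor liver. ND tumors had 50.3, 70.5, 55.0 and 47.2, against 266, 240, 210 and 170 in ND nontumor liver. Each tumor library was below each nontumor library of its diet. The log2 fold change was -2.08 ± 0.28 (SE; adjusted p = 6.19e-05) on KD and -1.97 ± 0.28 (adjusted p = 7.86e-05) on ND. Summed over the 9 genes, levels averaged 323 ± 119 in KD tumors, 288 ± 55.5 in ND tumors, 1631 ± 265 in KD nontumor and 1514 ± 208 rescaled TPM in ND nontumor liver (SD, n = 4 each).

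On deposited TPM, without rescaling, the log2 fold change was -1.75 for Akr1d1 and -1.45 for Slc27a5 on KD, and -1.24 for Akr1d1, -0.66 for Slc27a5 and -1.31 for Baat on ND, and none of these 5 passed (adjusted p = 0.0734 to 0.596). Those of Cyp7a1, Cyp8b1, Cyp27a1 and Cyp7b1 passed on both diets. Markers of cell types were counted in the same tissue comparison. Of all tested genes 16.2% were called lower and 16.3% higher on KD, and 14.2% lower and 14.5% higher on ND, and several of the counts are near these shares. Summed Kupffer cell markers were 35.6 to 69.3 in KD tumors, 17.7 to 40.1 in ND tumors, 189 to 369 in KD nontumor and 345 to 480 rescaled TPM in ND nontumor liver, and 6 of 7 tested markers fell on KD and 7 of 7 on ND. Summed cholangiocyte markers were 753 to 2526 in KD tumors, 524 to 1927 in ND tumors, 43.2 to 266 in KD nontumor and 126 to 212 in ND nontumor liver, and 1 of 6 rose and 1 fell on KD, 2 rose and 2 fell on ND. Spp1, osteopontin, made up most of this sum, with 1222 ± 859 in KD tumors, 1150 ± 586 in ND tumors, 127 ± 92.7 in KD nontumor and 126 ± 31.9 in ND nontumor liver (SD, n = 4 each). Krt19, a bile duct keratin, averaged 1.73 ± 0.552 in KD tumors and 4.89 ± 3.95 in KD nontumor liver, with overlap. It averaged 1.04 ± 1.67 in ND tumors and 5.64 ± 2.40 in ND nontumor liver. Anxa13 fell on both diets. Sox9, of the same list, went the other way on ND, with 29.2 ± 7.85 in ND tumors and 11.7 ± 2.42 in ND nontumor liver. On KD it overlapped, with 6.60 ± 1.11 in KD tumors and 5.63 ± 1.56 in KD nontumor liver. Of 8 endothelial markers 1 rose and 0 fell on KD, and 4 rose and 3 fell on ND, and of 8 stellate cell and fibroblast markers 3 rose and 1 fell on KD and 2 rose and 2 fell on ND. Summed hepatocyte markers were 138280 to 200550 in KD tumors, 77200 to 133480 in ND tumors, 32855 to 93118 in KD nontumor and 50027 to 91623 in ND nontumor liver. Of these 12 markers, 5 rose and 2 fell on KD and 2 rose and 3 fell on ND. Alb and Apoa1 had the highest mean levels of this list in every group. Cps1 had lower means in tumors on both diets, as did Tat. Cps1 averaged 74.1 ± 36.4 in KD tumors and 57.1 ± 15.6 in ND tumors. It averaged 216 ± 17.2 in KD nontumor and 308 ± 40.0 in ND nontumor liver. The part of these cell types in the enzyme results was not tested.

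**Figure D2:**
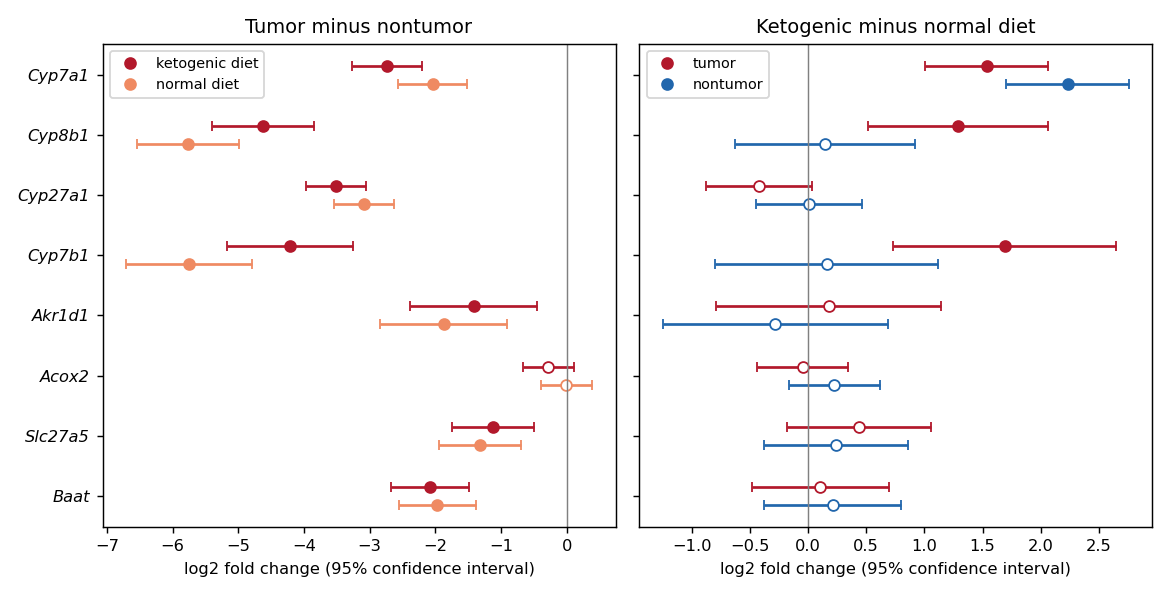
Log2 fold changes of the 8 tested enzymes (horizontal axis) with 95% confidence intervals, tumor minus nontumor on each diet at left and ketogenic minus normal diet in each tissue at right. Filled points passed adjusted p under 0.05 and open points did not. Cyp8b1 reaches -5.76 on ND at left, and at right Cyp7a1 is filled in both tissues.

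The diet comparison in nontumor liver involved few genes. Cyp7a1 was the only 1 of the 13432 tested genes called higher in KD nontumor than in ND nontumor liver, which is 0.00744% of tested genes, while 0.0447% were called lower and 0.0521% in either direction. Other settings called more genes higher, 60 on deposited TPM, 230 with sample weights, 7 with the common sum and 6 with no filter. Its 15.1, 18.4, 17.6 and 23.9 rescaled TPM on KD lay above all of 4.24, 3.68, 2.71 and 2.25 on ND. The log2 fold change was 2.23 ± 0.25 (SE, n = 4 per group; adjusted p = 0.000588), and 13 genes had a larger one. Groups without overlap, higher on KD, occurred for 3.19% of tested genes and lower on KD for 2.79%. Reads gave a ratio of 5.33 (95% exact interval 4.66 to 6.13). Without ND nontumor 4 the log2 fold change was 2.15 (adjusted p = 0.00356).

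The other 7 tested enzymes were not called between diets in nontumor liver. Cyp8b1 averaged 137 ± 48.7 in KD nontumor and 121 ± 34.8 rescaled TPM in ND nontumor liver (SD, n = 4 each), with a log2 difference of 0.14 (95% interval -0.63 to 0.92). Cyp27a1 averaged 771 ± 214 in KD nontumor and 751 ± 94.2 in ND nontumor liver (difference 0.01, interval -0.45 to 0.46). Cyp7b1 averaged 121 ± 29.1 in KD nontumor and 119 ± 56.8 in ND nontumor liver (difference 0.16, interval -0.80 to 1.12). For Akr1d1, Acox2, Slc27a5 and Baat the log2 difference ranged between -0.28 and 0.24, with adjusted p of 0.796 to 0.917. The 95% intervals reached 1.12 for Cyp7b1 and -1.25 for Akr1d1.

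Between tumors, 3 of 8 enzymes rose on KD and 0 fell, where 7.21% of tested genes were called higher, 8.49% lower and 15.7% in either direction. Cyp7a1 had 1.52, 1.12, 1.55 and 4.38 rescaled TPM in KD tumors, against 0, 0, 0 and 0.0325 in ND tumors (log2 fold change 1.54 ± 0.25, SE; adjusted p = 0.00187). Cyp7b1 had 4.22, 4.16, 2.27 and 18.3 in KD tumors, against 1.37, 0.548, 1.07 and 1.06 in ND tumors (1.69 ± 0.45; adjusted p = 0.0215). Cyp8b1 had 5.66, 4.18, 3.72 and 3.89 in KD tumors, against 0, 2.94, 1.01 and 1.81 in ND tumors (1.29 ± 0.37; adjusted p = 0.0273). None of the 3 overlapped between diets, which was so, higher on KD, for 12.3% of tested genes. All 3 stayed below KD nontumor levels in every KD tumor. Markers of other cells also differed between KD and ND tumors. Of 8 endothelial markers 2 were called higher and 3 lower in KD tumors, and Clec4g averaged 16.8 ± 5.20 in KD tumors and 2.36 ± 0.963 in ND tumors, against 1.54 ± 0.523 in KD tumors and 8.56 ± 3.39 in ND tumors for Cd34 (SD, n = 4 each). Of 7 tested Kupffer cell markers 2 were higher and 0 lower, of 6 cholangiocyte markers 1 was higher and 1 lower, of 12 hepatocyte markers 1 was higher and 0 lower, and of 8 stellate cell and fibroblast markers 0 were called. Summed endothelial markers were 48.9 to 89.5 in KD tumors and 66.6 to 112.5 rescaled TPM in ND tumors. Their part in the enzyme results was not tested.

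The support for these 3 calls was unequal. Without KD tumor 4 only Cyp7a1 was called (1.24, adjusted p = 0.00369), and Cyp7b1 had 1.16 with adjusted p = 0.0561. Cyp8b1 was lost whenever any 1 KD tumor, ND tumor 1 or ND tumor 3 was left out (adjusted p = 0.0528 to 0.0818, log2 fold change 0.92 to 1.35), and with no filter (adjusted p = 0.0512). On deposited TPM 0 of 8 enzymes were called in this comparison (Cyp7a1 1.59, adjusted p = 0.0685), where 113 of the 13432 tested genes were called. Of the 8 enzymes, limma-voom on the recovered reads called Cyp7a1 only. In summed reads, Cyp7a1 had 218 in KD tumors and 1 in ND tumors, a ratio of levels of 190 (33.8 to 7555). The ratio was 6.32 (4.70 to 8.68) for Cyp7b1, from 362 reads in KD tumors and 50 in ND tumors. For Cyp8b1 it was 2.96 (2.24 to 3.96), from 224 reads in KD tumors and 66 in ND tumors.

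Cyp27a1 averaged 65.6 ± 14.2 in KD tumors and 87.0 ± 8.33 rescaled TPM in ND tumors (SD, n = 4 each), a log2 difference of -0.42 (95% interval -0.88 to 0.03; adjusted p = 0.183), which was called, at -0.89, with listed genes scaled to 1 common sum (adjusted p = 0.0323). Akr1d1 averaged 27.2 ± 22.6 in KD tumors and 18.9 ± 6.76 in ND tumors (difference 0.18, interval -0.79 to 1.14). Acox2 averaged 50.4 ± 7.93 in KD tumors and 53.1 ± 14.0 in ND tumors (-0.05, -0.44 to 0.34). The libraries of the diets overlapped for both enzymes. Slc27a5 averaged 101 ± 43.8 in KD tumors and 71.0 ± 20.2 in ND tumors (0.44, -0.18 to 1.06), and Baat 65.0 ± 32.3 in KD tumors and 55.8 ± 10.4 in ND tumors (0.10, -0.49 to 0.69). These groups overlapped as well, with KD tumor 4 the highest library for both enzymes.

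Whether the tumor change differed between diets was tested by the interaction, tumor minus nontumor on KD less that on ND. By limma, 0 of 8 enzymes were called, where 0.618% of tested genes were called, 0.208% higher and 0.409% lower. At an unadjusted p under 0.05, 2 enzymes and 2413 of all tested genes passed, and voom on recovered reads also called 0 enzymes. The 2 largest values were 1.53 ± 0.64 for Cyp7b1 (SE; adjusted p = 0.227) and 1.15 ± 0.52 for Cyp8b1 (adjusted p = 0.259). For Cyp7a1 the value was -0.70 ± 0.35 (adjusted p = 0.308), and its sign depended on the treatment of values near 0. With a pseudocount of 0.1 it was 1.66 (adjusted p = 0.12), and with voom 3.50 (adjusted p = 0.0905). A difference between diets in the tumor decrease was thus not shown for any of the 8.

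**Figure D3:**
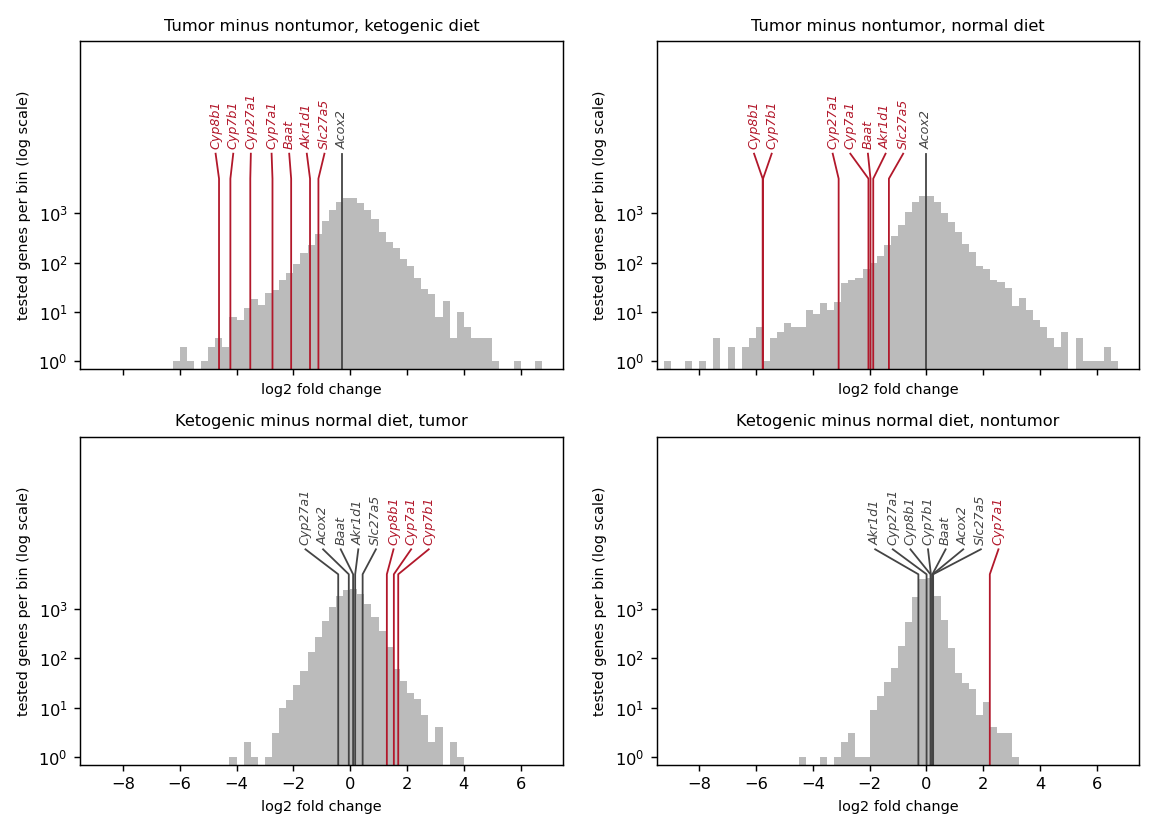
Distribution of log2 fold changes over the 13432 tested genes (grey bars of 0.25 log2 units, log-scaled vertical axis) in 4 comparisons, with the 8 tested enzymes as lines, red where called. Tumor against nontumor liver places 7 enzymes on the left flank on both diets, and the diet comparison in nontumor liver leaves all but Cyp7a1 near 0.

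Setting the classic pair against the alternative pair, both pairs fell in tumors on both diets, 2 of 2 genes each. Of all tested genes 16.2% were called lower on KD and 14.2% on ND. The routes differed in level. Since TPM is per transcript length, shares of summed TPM compare genes within a library. Cyp7a1 made up 26.4%, 21.2%, 40.6% and 19.3% of Cyp7a1 plus Cyp7b1 in KD tumors and 0%, 0%, 0% and 2.96% in ND tumors. In nontumor liver it made up 11.3%, 18.3%, 10.4% and 15.1% on KD and 3.87%, 2.53%, 1.48% and 4.58% on ND. The KD share thus exceeded the ND share in every library of both tissues, with means of 26.9% ± 9.61 in KD tumors, 0.741% ± 1.48 in ND tumors, 13.8% ± 3.62 in KD nontumor and 3.12% ± 1.38 in ND nontumor liver (SD, n = 4 each).

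Cyp8b1 as a share of Cyp8b1 plus Cyp27a1 behaved differently by tissue. It was 7.14%, 7.11%, 6.57% and 4.55% in KD tumors and 0%, 3.16%, 1.03% and 2.14% in ND tumors. In nontumor liver it was 21.1%, 23.0%, 7.67% and 11.8% on KD and 15.1%, 16.4%, 12.8% and 10.6% on ND, where the diets overlapped. All tumor shares were below all nontumor shares. Cyp27a1 alone made up 83.7% ± 5.58 of the TPM of the 4 hydroxylases in KD tumors, 97.3% ± 0.973 in ND tumors, 72.8% ± 5.80 in KD nontumor and 76.0% ± 5.72 in ND nontumor liver.

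An index per library, the mean log2(rescaled TPM + 1) of the classic pair minus that of the alternative pair, averaged -2.38 ± 0.43 in KD tumors, -3.16 ± 0.51 in ND tumors, -2.57 ± 0.58 in KD nontumor and -3.68 ± 0.35 in ND nontumor liver (SD, n = 4 each). The alternative pair was higher in all 4 groups, and the KD means lay closer to 0. No test was made on this index. ND tumors minus ND nontumor liver was 0.52 in this index, and -1.10 with a pseudocount of 0.1.

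**Figure D4:**
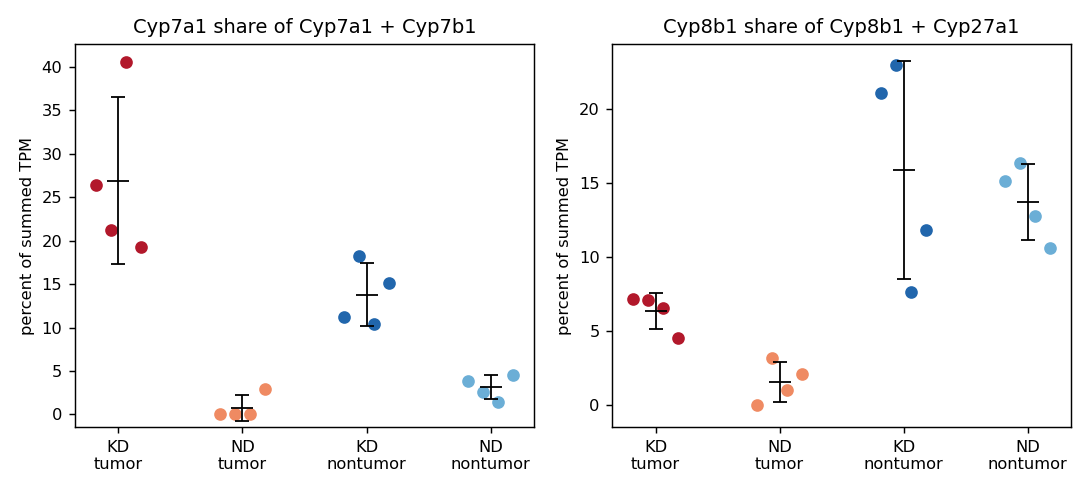
Cyp7a1 as a percent of Cyp7a1 plus Cyp7b1 TPM (left) and Cyp8b1 as a percent of Cyp8b1 plus Cyp27a1 TPM (right) in each library, with mean and SD bars (n = 4 per group). At left KD libraries lie between 10.4% and 40.6% and ND libraries at or below 4.58%. At right all tumor libraries lie at or below 7.14% and all nontumor libraries at or above 7.67%.

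Of 16 other enzymes of bile acid synthesis and handling, 6 fell and 1 rose in tumors on KD, and 10 fell and 0 rose on ND. Of all tested genes 16.2% were called lower and 16.3% higher on KD, and 14.2% lower and 14.5% higher on ND. Sult2a8, a mouse sulfotransferase for bile acids, averaged 36.3 ± 31.0 in KD tumors against 443 ± 60.0 rescaled TPM in KD nontumor liver (log2 fold change -3.87; adjusted p = 4.39e-06). In ND tumors it averaged 5.14 ± 2.06 against 352 ± 103 in ND nontumor liver (-5.85; adjusted p = 4.96e-08). Cyp46a1, a cholesterol hydroxylase best known from brain, fell by 1.94 on the log2 scale on KD, and Akr1c6, a hydroxysteroid dehydrogenase, by 1.25. The Akr1c6 call on KD was lost without KD tumor 1 or 2 (adjusted p = 0.0535 and 0.059) and on deposited TPM (adjusted p = 0.147). On ND, Cyp3a11, a drug and bile acid hydroxylase, fell by 3.01, Akr1c6 by 2.46 and for Scp2, a peroxisomal thiolase and sterol carrier, the log2 fold change was -2.05. Cyp39a1, an oxysterol hydroxylase, averaged 11.6 ± 0.790 in KD tumors and 5.06 ± 4.52 in KD nontumor liver (1.43; adjusted p = 0.0187). That call was lost without KD nontumor 3 or 4 (1.06 and 1.05; adjusted p = 0.0726 and 0.0752), with sample weights (0.62, adjusted p = 0.155), with only the groups compared (adjusted p = 0.0576) and on deposited TPM (1.20, adjusted p = 0.116).

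Between diets 7 of these 16 enzymes rose in KD tumors and 0 fell, where 7.21% of tested genes were called higher and 8.49% lower. In nontumor liver 0 of the 16 were called, where 0.0521% of tested genes were called in either direction. Sult2a8 was higher in KD than in ND tumors by 2.35 on the log2 scale (adjusted p = 0.00204), Cyp3a11 by 2.15 (adjusted p = 0.0229), Aldh3a2, a fatty aldehyde dehydrogenase, by 2.06 (adjusted p = 0.000778) and Akr1c6 by 1.80 (adjusted p = 0.00604). Cyp3a11 was lost without KD tumor 4 (1.75, adjusted p = 0.0759) or ND tumor 1 (2.03, adjusted p = 0.0636). On deposited TPM 0 of the 16 were called between tumors, where 113 of the 13432 tested genes were called, 39 higher and 74 lower.

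Of 22 tested regulators of these genes, 13 fell and 0 rose in tumors on KD, and 10 fell and 1 rose on ND, beside 16.2% of all tested genes called lower on KD and 14.2% on ND. On deposited TPM 6 fell on KD and 1 on ND. On that scale 724 of the 13432 tested genes were called lower on KD and 324 on ND. Nr1h4 passed there on neither diet (adjusted p = 0.179 on KD and 0.495 on ND). Nr1h4, the bile acid receptor FXR, averaged 143 ± 60.8 in KD tumors against 330 ± 133 rescaled TPM in KD nontumor liver, with overlap (log2 fold change -1.19; adjusted p = 0.00479). It averaged 100 ± 5.93 in ND tumors against 291 ± 42.2 in ND nontumor liver (-1.52; adjusted p = 0.000861). Its target Nr0b2, the repressor SHP, was not called in any comparison, and averaged 148 ± 54.4 in KD tumors, 164 ± 36.3 in ND tumors, 131 ± 13.7 in KD nontumor and 184 ± 46.3 in ND nontumor liver. Nr1i3, the receptor CAR, fell by 3.46 on the log2 scale on KD and by 2.56 on ND. Nfil3, a clock repressor, fell by 1.79 and Foxa2, a liver pioneer factor, by 1.62 on KD. Onecut1, a liver transcription factor, fell by 1.25 on the log2 scale on ND.

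Fgfr4, the liver receptor for FGF15, averaged 17.3 ± 6.92 in KD tumors against 58.1 ± 17.5 in KD nontumor liver (log2 fold change -1.74; adjusted p = 0.000472), and 37.9 ± 7.16 in ND tumors against 51.6 ± 17.3 in ND nontumor liver (-0.40; adjusted p = 0.34). Its co-receptor Klb fell by 1.19 on the log2 scale on KD (adjusted p = 0.00661), and on ND had -0.70 (adjusted p = 0.0939). The interaction was not called for either gene (adjusted p = 0.134 for Fgfr4 and 0.559 for Klb). Nr5a2, the activator LRH-1, averaged 11.8 ± 2.16 in KD tumors against 12.7 ± 1.95 in KD nontumor liver and was not called, and averaged 20.6 ± 3.50 in ND tumors against 11.6 ± 2.43 in ND nontumor liver (0.79; adjusted p = 0.00327). Between KD and ND tumors Fgfr4 fell by 1.17 on the log2 scale (adjusted p = 0.018) and Nr5a2 by 0.75 (adjusted p = 0.0118), and the interaction for Nr5a2 was not called (adjusted p = 0.098). Dbp, a clock activator, was higher in KD tumors by 2.07 (adjusted p = 0.0192) and Cebpa, a hepatocyte factor, by 0.78 (adjusted p = 0.0201). The Dbp and Cebpa calls were each lost without KD tumor 3 or KD tumor 4, that of Dbp also without ND tumor 1 and that of Cebpa without ND tumor 3 (adjusted p = 0.0581 to 0.0672). With the common sum Dbp had 1.64 (adjusted p = 0.055) and Cebpa 0.30 (adjusted p = 0.322). On deposited TPM 0 of the 22 regulators were called between tumors, where 113 of the 13432 tested genes were called. In nontumor liver 0 of the 22 regulators were called between diets, where 0.0521% of all tested genes were called. Dbp nevertheless averaged 54.7 ± 37.8 in KD nontumor and 9.68 ± 5.61 rescaled TPM in ND nontumor liver (SD, n = 4 each), without overlap. Nr1i3, Foxa2 and Ppara were also higher on KD there without overlap, which was so for 3.19% of tested genes. No tested regulator lay lower on KD without overlap. The interaction was called for 0 of the 22 and for 0.618% of all tested genes, so a diet difference particular to tumors was not shown for Dbp or Cebpa.

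**Figure D5:**
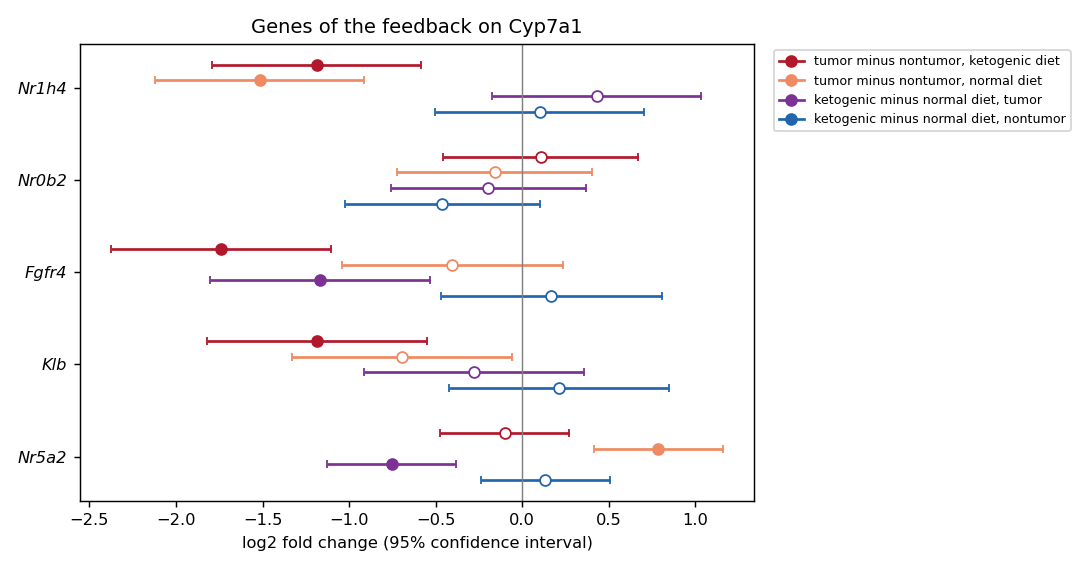
Log2 fold changes with 95% confidence intervals (horizontal axis) for the bile acid receptor Nr1h4, the repressor Nr0b2, the receptor pair Fgfr4 and Klb, and the activator Nr5a2, in 4 comparisons. Filled points passed adjusted p under 0.05. Nr1h4 is filled and below 0 in both tumor comparisons, Fgfr4 at -1.74 and Klb at -1.19 on KD, and no point is filled for the diet comparison in nontumor liver.

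Of 14 tested bile acid transporters and partners, 10 fell and 1 rose in tumors on KD, and 8 fell and 1 rose on ND, beside 16.2% of all tested genes called lower on KD and 14.2% on ND. The uptake carriers Slco1a1 and Slco1b2 had log2 fold changes of -3.76 and -2.32 on KD and of -4.22 and -3.07 on ND, all called. Abcb11, the bile salt export pump, averaged 88.6 ± 28.6 in KD tumors against 278 ± 57.6 rescaled TPM in KD nontumor liver (-1.67; adjusted p = 0.000339). Slc10a1, the main sodium-dependent uptake carrier, and the carrier Slco1a4 fell by 2.62 and 2.40 on ND. Slc51b, a subunit of the basolateral exporter, averaged 28.7 ± 23.0 in KD tumors against 1.43 ± 1.16 in KD nontumor liver (3.38; adjusted p = 0.00498). On ND it had 2.31 with adjusted p = 0.0435, a call lost in 8 of 16 fits that left out 1 library (adjusted p = 0.0503 to 0.141), and with a pseudocount of 0.1, no filter, only the groups compared or voom (adjusted p = 0.0775 to 0.362). Between KD and ND tumors Slc10a1 was higher by 2.07 (adjusted p = 0.0045) and Abcc3, a basolateral exporter, fell by 0.77 (adjusted p = 0.0138).

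The genes whose pattern over the 16 libraries lay closest to each hydroxylase, by root mean square difference of log2(rescaled TPM + 1) after removing each gene's mean, were chosen from 11741 genes. For Cyp7a1 they were Usp2 (0.62), Lipg (0.64) and Hsd3b2 (0.67). For Cyp8b1 they were Mup1 (0.72), the pseudogene Mup-ps16 (0.77) and Ces1b (0.79), of which the Mup genes have near-identical copies, so that their levels are uncertain. For Cyp27a1 they were Lrit2 (0.31), Slc12a7 (0.32) and Rapgef4 (0.33), and for Cyp7b1 Sult2a8 (0.47), Hsd3b5 (0.57) and Mup13 (0.70). Lrit2 averaged 0.0445 in KD tumors, 0 in ND tumors, 11.2 in KD nontumor and 9.22 rescaled TPM in ND nontumor liver. Its change is understated on this scale, while Cyp27a1 kept 65.6 in KD tumors and 87.0 in ND tumors. Usp2, a deubiquitinase, averaged 2.21 in KD tumors, 0.738 in ND tumors, 13.3 in KD nontumor and 5.53 rescaled TPM in ND nontumor liver. The libraries share their group structure, so closeness here is a description of these 16 libraries.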

How the data were processed

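RNA was extracted with Trizol from 16 samples, and the RNA type is named as polyadenylated, per the labels' protocols. The submitters' processing notes name FastQC, HISAT2, SAMtools, featureCounts and mm10, without versions. The authors deposited TPM values for 20601 genes. The step to TPM is not given in the sources used here. Nontumor columns carry P where sample titles carry N and were matched by diet and number.

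TPM were divided by median-of-ratios factors over 12119 genes above 0 in all libraries. Genes with at least 1 TPM in at least 4 of 16 libraries were tested (13432) with limma (version 3.58.1, R 4.3.3, variance trend) on log2(rescaled TPM + 1), 4 group means in 1 fit, no block, Benjamini-Hochberg adjusted p under 0.05. This was tested on simulated data. Python 3.11.15 with pandas 2.3.3, NumPy 2.4.6, SciPy 1.17.1 and matplotlib 3.10.9 served for the rest.

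Whole reads were recovered from the steps of the deposited TPM for 20601 of 20601 genes within 0.001 reads. Implied lengths equalled the union of GENCODE M21 exons for 98.08% of 9822 genes with at least 1000 reads. They served for depth, floors of 3 reads, exact intervals and an added limma-voom fit.

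The 9 genes and all lists were chosen with earlier results of these data known. Named beside them were up to 4 called genes per list and comparison with the largest change, 5 feedback genes, and 3 nearest genes per hydroxylase; 1 gene this rule names is not reported here. Alternatives were other scales, pseudocount 0.1, no filter, only the groups compared, sample weights, replicate blocks and leaving out each library.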

Additional observations from a re-analysis of the deposited data

Results flagged for a closer look

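Among 43 groups of 4 libraries examined, 4 held a library far from the other 3, and chance alone flags about 1 in 20 groups. Cyp7a1 reached 4.38 rescaled TPM in KD tumor 4, against 1.12 to 1.55 in the other KD tumors. Cyp7b1 reached 18.3 rescaled TPM in KD tumor 4, against 2.27 to 4.22 in the other KD tumors, while Cyp8b1 in that library (3.89) was inside the range of the others (3.72 to 5.66). Cyp7a1 had 0.0325 rescaled TPM in ND tumor 4, which is 1 read, and 0 in the other ND tumors. Listed genes made up 7.38% of the TPM total in ND nontumor 4, against 73.4% to 84.3% in the other ND nontumor libraries.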

How the results depend on the processing

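The 8 tested enzymes were refitted in 5 comparisons (the fixed replicate block in 3 of them), 1024 values in all, of which 957 kept direction and side of the threshold, 24 lost a call, 2 gained one and 41 changed sign. None of the sign changes was in an enzyme called by the reported fit. The Cyp7a1 rise in nontumor liver passed under each alternative (adjusted p = 1.63e-05 to 0.00921). Causes of the changes below were not tested. Depth limits Cyp7a1 and Hsd3b7 in ND tumors, where 1 read and 0 reads were recovered.

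On deposited TPM 4 enzymes were called lower in ND tumors and 0 between tumors of the 2 diets. Voom, added after seeing the data, called 1 enzyme between tumors, as did the fit without KD tumor 4, and other fits without 1 library called up to 3. Over all genes, deposited TPM gave 1111 calls for tumors on KD (4364 in the reported fit), 1418 on ND (3855), 113 between tumors (2109), 65 between nontumor livers (7) and 14 for the interaction (83). Voom gave 4317, 3727, 2496, 6 and 81. Between nontumor livers the common sum gave 13 calls, a pseudocount of 0.1 gave 4, only the groups compared 2 and sample weights 433. For the interaction the common sum gave 546, no filter 32 and sample weights 386. Leaving out 1 library gave 1041 to 2516 between tumors (1041 without KD tumor 3, 1110 without KD tumor 4 and 1151 without ND tumor 1) and 5 to 12 between nontumor livers (11 without ND tumor 3 and 12 without KD nontumor 4). For the interaction it gave 9 (without ND nontumor 2) to 190 (without ND nontumor 4), and the count fell to 53 or fewer without any 1 of KD tumors 2, 3 and 4, ND tumors 1 and 2, KD nontumor 2, 3 and 4 or ND nontumor 1, 2 and 3.

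Scale also moved the split. On ND, 1094 genes rose and 324 fell in tumors on deposited TPM and 2612 and 1089 with the common sum, against 1946 and 1909 as reported. On KD these were 387 and 724, 1197 and 2826, and 2189 and 2175, and between tumors 39 and 74, 273 and 2606, and 969 and 1140. Between nontumor livers they were 60 and 5, 7 and 6, and 1 and 6, and for the interaction 2 and 12, 33 and 513, and 28 and 55. The median gene shifted by -0.26, 0.42, 0.00, 0.69 and -0.67 on deposited TPM (KD, ND, between tumors, between nontumor livers, interaction) and by -0.26, 0.21, -0.33, 0.10 and -0.46 with the common sum. Of the gene lists, deposited TPM called 0 genes higher and 2 lower of the other synthesis enzymes in KD tumors and 1 and 2 in ND tumors, 0 and 6 and then 0 and 1 of the regulators, and 1 and 4 of the transporters on either diet. Between tumors it called 0 genes of these 3 lists, and between nontumor livers 1 synthesis enzyme and 2 regulators, all higher on KD. With the common sum 1 other synthesis enzyme rose and 10 fell in KD tumors, and 1 regulator rose and 6 fell in ND tumors.

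These sign changes were all in values that missed the threshold. On deposited TPM, Acox2 on ND was 0.62, Akr1d1 between nontumor livers 0.64, and the interaction -0.51 for Akr1d1 and -0.79 for Slc27a5. With the common sum, Acox2 on ND was 0.25, the diet difference in tumors was -0.27 for Akr1d1, -0.028 for Slc27a5 and -0.36 for Baat, and the interaction -0.10 for Akr1d1 and -0.38 for Slc27a5. Acox2 on ND was 0.0014 with the trimmed mean of M values scale and 0.0099 with voom. Sample weights gave -0.02 for both Akr1d1 (-0.0208) and Baat (-0.0185) in tumors, and -0.22 for Cyp27a1 and -0.34 for Cyp7b1 in nontumor liver. The Cyp7a1 interaction was 1.66 with a pseudocount of 0.1 and 3.50 with voom. Of the feedback genes, Nr0b2 was -0.23 on KD, 0.50 on ND, 0.49 between nontumor livers and -0.73 for the interaction on deposited TPM, and -0.22 on KD, 0.0948 on ND and -0.32 for the interaction with the common sum. Fgfr4 on ND was 0.24 and the Nr1h4 interaction -0.67 on deposited TPM. With the common sum Nr1h4 was -0.0383 between tumors and -0.25 for the interaction. Sample weights gave -0.29 for Nr1h4 and -0.0908 for Klb in nontumor liver.

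Leaving out 1 library at a time, the values ranged over 0 as follows. Between tumors they were -0.30 to 0.66 for Akr1d1, -0.22 to 0.0878 for Acox2, -0.18 to 0.40 for Baat, -0.39 to 0.0368 for Nr0b2 and -0.59 to 0.0192 for Klb. Between nontumor livers they were -0.0508 to 0.44 for Cyp8b1, -0.15 to 0.17 for Cyp27a1, -0.23 to 0.41 for Cyp7b1 and -0.0782 to 0.30 for Nr1h4. On ND, Acox2 was -0.14 to 0.17 and Nr0b2 -0.32 to 0.003, and on KD Nr0b2 was -0.0891 to 0.34. For the interaction Akr1d1 was -0.0237 to 0.94, Slc27a5 -0.0128 to 0.45 and Baat -0.40 to 0.19. With a pseudocount of 0.1 the classic minus alternative index was -1.10 for ND tumors minus ND nontumor liver, 2.30 for KD minus ND tumors and 1.04 for the interaction, against 0.52, 0.78 and -0.33 as reported.

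With a replicate block, all 64 refitted enzyme values kept their direction and call. The block as a fixed term moved interaction calls over all genes to 32, and as a random term to 65. Deviations of tumor and nontumor libraries of equal number correlated at -0.11 to 0.16, over 0.1 in 2 of 8 pairs. Those of unequal number within a diet correlated at -0.23 to 0.18. These correlations cannot decide whether samples of equal number belong together, and the reported fit did not pair them. Whether equal numbers mark 1 mouse is not given in the labels.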
